A study of Rattus norvegicus with 12 samples.

Results

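Immediate early genes are switched on within minutes of a stimulus, by transcription factors that are already present in the cell, so that no new protein has to be made first. Their products are mostly transcription factors with short-lived mRNA, and the genes they act on form the later part of the response. Growth factors, calcium entry and cell stress act on them through the ERK, JNK and p38 kinases, through SRF with its Elk partners, and through CREB. In the urinary bladder, stretch of the muscle and irritation of the wall are known stimuli. The genes described here were Fos, Fosb, Jun and Junb, which encode subunits of the dimeric factor AP-1, Atf3, a stress-induced relative that binds CREB and AP-1 sites, the zinc finger factors Egr1, Egr2 and Egr3, the orphan nuclear receptor Nr4a1, and Ier2, which growth factors induce.

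These 10 genes were chosen by name, and their probes were found through the RefSeq accession that the array files give for each probe. A probe was found for 9 of the 10 genes, out of 15154 genes with a symbol on the array. Fosb had no probe by accession. Egr3 had 2 probes and each of the other 8 genes had 1. The second Egr3 probe was well above background on 0 of 4 arrays of young, 1 of 4 of old freely fed and 2 of 4 of old restricted rats, so it did not pass the filter on dim probes. The remaining 9 probes, 1 for each gene, were well above background on all 12 arrays.

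RNA came from the bladder body of 12 male Fischer 344 rats, an inbred strain, with 1 animal on each 1-colour Agilent array. Each of the 3 groups held 4 animals. Young freely fed rats were 6 months old and ate normal food without limit. Old freely fed rats were aged 25 to 28 months and did the same. Old restricted rats, also aged 25 to 28 months, received food on only 3 days of each week, starting when they were 6 weeks old, which the study puts at roughly 40% fewer calories. The series is titled as a study of inflammatory and oxidative changes with age in the bladder, and of their prevention by caloric restriction. In a whole tissue, fewer cells of a type and less RNA per cell cannot be told apart. Nothing in the labels places the animals in separate litters, cages or extraction days.

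A level is given as the log2 signal of a probe minus the 75th percentile of log2 signals on the same array, so that a level of 0 lies at that percentile. Probes differ in brightness for reasons other than mRNA amount, so that levels were compared between animals and not between genes. Between 21659 and 24644 of 30367 probes were well above background on an array, and arrays of 1 group correlated at 0.985 to 0.997. Arrays of different groups correlated at 0.9815 to 0.9941, a range that overlapped with it. On the leading principal component, replicate 2 of the old freely fed rats had a score of 51.9, while its 3 group mates had 7.27 to 13.7. All freely fed rats shared 1 slide and 1 scan, and all restricted rats another slide and scan, so that in both comparisons with restricted rats the diet and the slide cannot be told apart. On the shared slide all young rats were in array row 1 and all old freely fed rats in row 2, so that age and row cannot be told apart either. Negative control spots had a mean level of -9.08 in young, -10.17 in old freely fed and -9.69 in restricted rats. Most urothelial and smooth muscle markers were bright in all groups. The exceptions among smooth muscle markers were Myocd, a coactivator of SRF, at -1.03 to -0.68 by group, and Tagln, at 6.30 in young, 4.03 in old freely fed and 6.06 in restricted rats, with 3 of 4 old freely fed arrays above background. Upk1a, a uroplakin of the urothelial surface, had a mean level of 6.05 to 6.22 by group, and Actg2, the enteric smooth muscle actin, of 6.83 to 7.06. Markers of the neighbouring male glands, Pbsn, Svs4, Svs5 and Azgp1, were well above background on 0 arrays.

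The promoters of the genes are shown first, since short sequences near the start site are what the upstream factors bind. RefSeq (build GRCr8) gave a promoter for 5 of the 9 measured genes, Egr1, Egr2, Ier2, Junb and Nr4a1, from 250 bases before to 50 bases after the start site. Both strands were searched for the CArG box that SRF binds, for the full CREB site TGACGTCA, for TGACG, its half-site, which also lies inside each full site, for the AP-1 site TGANTCA, and for the GC box GGGCGG. The last 120 bases before the start site are printed for 3 genes that hold these letters close to the start, with CArG boxes and CREB letters in capitals (CGTCA is TGACG read on the other strand).
Egr2, chr20:21054442-21054561, minus strand: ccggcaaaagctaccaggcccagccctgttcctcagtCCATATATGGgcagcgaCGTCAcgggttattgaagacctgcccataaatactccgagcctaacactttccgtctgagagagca
Ier2, chr19:40399253-40399372, plus strand: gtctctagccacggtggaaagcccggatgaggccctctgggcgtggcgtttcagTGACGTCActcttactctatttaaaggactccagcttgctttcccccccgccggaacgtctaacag
Nr4a1, chr7:134260018-134260137, plus strand: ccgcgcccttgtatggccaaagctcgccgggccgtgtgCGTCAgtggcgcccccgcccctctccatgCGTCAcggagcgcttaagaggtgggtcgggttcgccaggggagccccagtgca

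The CArG box in Egr2 begins 83 bases before the start site and its CREB half-site begins 66 bases before it. Egr1 holds 2 CArG boxes, at 105 and 83 bases before the start, and 2 half-sites, at 135 and 66 bases. The nearest CArG box and the nearest half-site thus lie at the same distances in Egr1 and Egr2. CArG boxes occurred in 1.64% of the 33469 promoters of the same length. Ier2 has the full CREB site 66 bases before its start, found in 1.83% of promoters, and no CArG box in this window. Nr4a1 has 4 half-sites, at 246, 226, 82 and 53 bases, and 3 GC boxes, at 187, 127 and 68 bases. Junb has 1 half-site, at 155 bases. At least 1 half-site was present in each of the 5 promoters, against 21.2% of all promoters, the AP-1 letters TGANTCA were present in none of the 5 against 7.33%, and the GC box was present in Egr2 and Nr4a1 against 33.1%. These are matches of letters and not sites of binding.

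Levels differed widely between animals of 1 group, most of the genes (Egr3 and, among restricted rats, Junb were exceptions) were high or low in the same animals, and the restricted rats had the lowest group mean for all 9 genes, although for Egr3 the margin was under 0.01 and turned with median centring or quantile scaling of the arrays. No gene passed the adjusted threshold in any of the 3 comparisons.

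**Figure D1:**
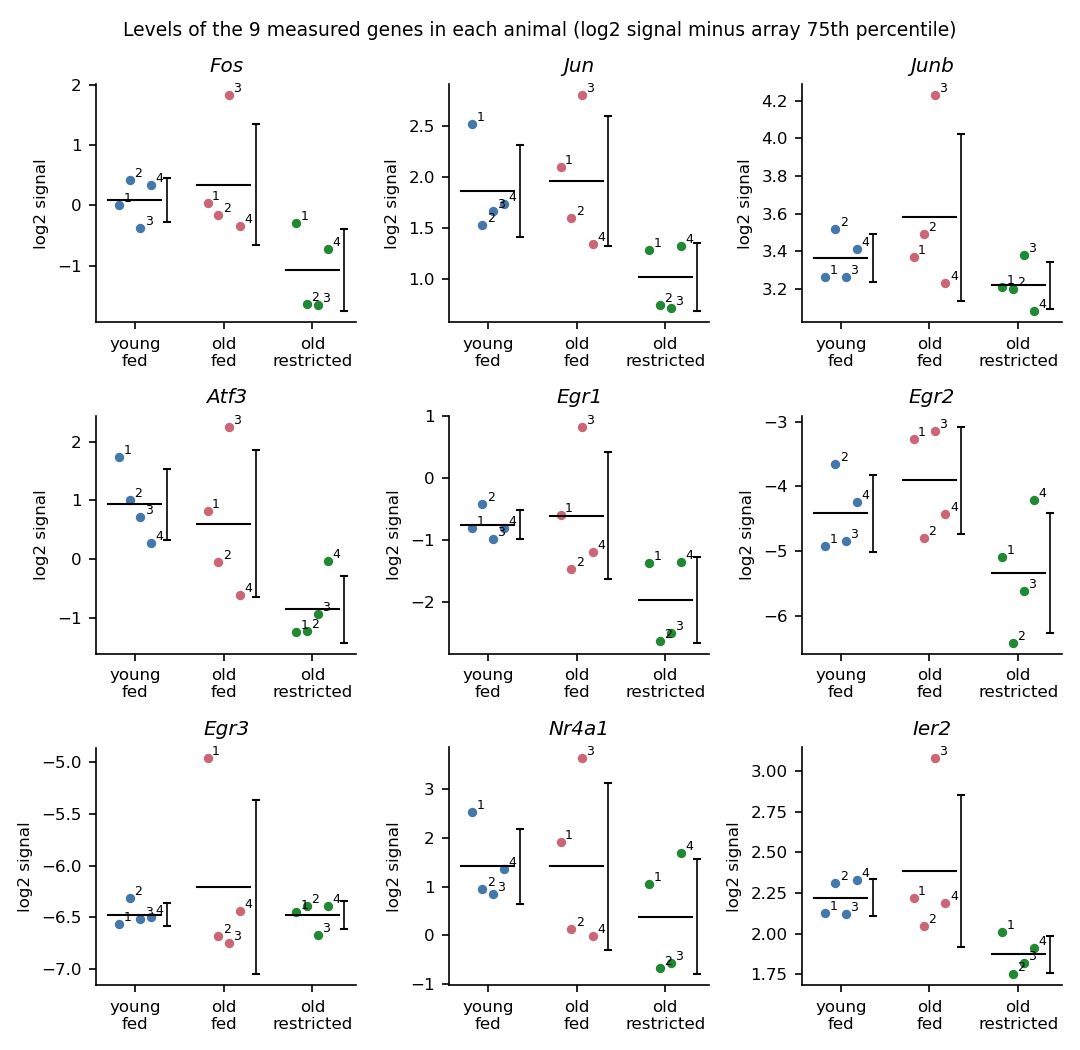
Log2 signal minus the array's 75th percentile (y axis of each panel, not starting at 0) for the 9 measured genes in each of the 12 rats. Points are animals numbered by replicate, horizontal lines are group means and the bars beside them are SDs (n = 4); old freely fed replicate 3 is the highest of its group in 8 of 9 panels, and restricted replicates 2 and 3 are low for Fos, Jun, Egr1 and Nr4a1.

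Fos, the AP-1 subunit that has to pair with a Jun protein to bind DNA, had levels of 0.0, 0.42, -0.38 and 0.34 in young rats 1 to 4. In old freely fed rats its levels were 0.04, -0.16, 1.83 and -0.34, and in restricted rats -0.29, -1.63, -1.66 and -0.73. Old freely fed replicate 3 stood far above the other animals, restricted replicates 2 and 3 stood at the bottom, and restricted replicate 1 overlapped with both fed groups. The mean level was 0.10 ± 0.37 in young, 0.34 ± 1.01 in old freely fed and -1.08 ± 0.68 in restricted rats (SD, n = 4). Restricted minus old freely fed rats came to -1.42 on the log2 scale (SE 0.45, 95% interval -2.42 to -0.43, limma adjusted p = 0.11), or 2.68-fold lower.

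Jun, the partner of Fos, had levels of 2.52, 1.53, 1.67 and 1.74 in young rats. They were 2.10, 1.60, 2.80 and 1.35 in old freely fed rats and 1.29, 0.75, 0.72 and 1.33 in restricted rats. All 4 restricted rats lay below all 8 fed rats, although old freely fed replicate 4, at 1.35, and restricted replicate 4, at 1.33, were almost level. The difference between restricted and old freely fed rats was -0.94 (SE 0.30, limma adjusted p = 0.113), and that between restricted and young rats was -0.84 (SE 0.30, limma adjusted p = 0.105).

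Junb encodes a Jun-family subunit that often restrains the activity of Jun. Its levels were 3.26, 3.52, 3.26 and 3.41 in young, 3.37, 3.49, 4.23 and 3.23 in old freely fed and 3.21, 3.20, 3.38 and 3.08 in restricted rats. Apart from old freely fed replicate 3, the 12 animals lay within a narrow band and the groups overlapped. Restricted minus old freely fed rats gave -0.36 (SE 0.17, limma adjusted p = 0.26).

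Atf3, which is induced by many kinds of cell stress, had levels of 1.73, 1.0, 0.72 and 0.28 in young rats. Old freely fed rats had 0.83, -0.04, 2.25 and -0.61, and restricted rats had -1.23, -1.21, -0.92 and -0.02. Every restricted rat was below every young rat, whereas old freely fed replicates 2 and 4 fell within the range of the restricted group. Atf3 had the largest difference of the 9 genes between restricted and young rats, -1.78 (SE 0.54, 95% interval -2.95 to -0.61, 3.43-fold lower, limma adjusted p = 0.0596). Against old freely fed rats the difference was -1.45 (SE 0.54, limma adjusted p = 0.157).

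Egr1, a zinc finger activator of growth, matrix and inflammatory genes, had levels of -0.80, -0.42, -0.98 and -0.80 in young rats. The old freely fed rats had -0.60, -1.47, 0.83 and -1.19, and the restricted rats -1.37, -2.62, -2.50 and -1.35. The restricted group held a higher pair (replicates 1 and 4) and a lower pair (replicates 2 and 3), and all 4 lay below the young group. Egr1 differed by -1.36 (SE 0.45, limma adjusted p = 0.122) between restricted and old freely fed rats and by -1.21 (SE 0.45, limma adjusted p = 0.115) between restricted and young rats.

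Egr2, known for its part in the myelination of nerve and in the restraint of T cells, was measured by a dim probe. Levels were -4.93, -3.65, -4.84 and -4.25 in young, -3.27, -4.80, -3.14 and -4.43 in old freely fed and -5.10, -6.42, -5.62 and -4.22 in restricted rats. Restricted replicate 4 lay inside both fed groups and the other 3 restricted rats lay below them. The difference from old freely fed rats was -1.43 (SE 0.49, limma adjusted p = 0.135).

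Egr3, a relative of Egr2 that is also induced on activation of T cells and in muscle spindles, was likewise measured by a dim probe. Its levels ran from -6.56 to -6.31 in young and from -6.67 to -6.39 in restricted rats. In old freely fed rats they were -4.96, -6.68, -6.75 and -6.44. Replicate 1 alone stood out, and this was the 1 gene of the 9 for which replicate 3 was not the highest of that group. Restricted and young rats differed by less than 0.01 on the log2 scale (SE 0.32, limma adjusted p = 0.996, 95% interval -0.70 to 0.69).

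Nr4a1, which binds DNA without a known ligand and is induced in muscle, macrophages and T cells, varied most. Young rats had 2.53, 0.94, 0.84 and 1.36, old freely fed rats 1.91, 0.12, 3.64 and -0.01, and restricted rats 1.05, -0.67, -0.57 and 1.70. The 3 groups overlapped over most of their range, and between the lowest and the highest old freely fed rat the difference was 12.6-fold. The restricted mean was lower than the old freely fed mean (log2 change -1.03, SE 0.80, limma adjusted p = 0.49) and also lower than the young mean (log2 change -1.04, SE 0.80, limma adjusted p = 0.442).

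Ier2, a gene induced early by growth factors, varied least together with Junb. Levels were 2.13, 2.31, 2.12 and 2.33 in young, 2.22, 2.05, 3.08 and 2.19 in old freely fed and 2.01, 1.75, 1.82 and 1.91 in restricted rats. The restricted rats lay below both fed groups, with restricted replicate 1 only just under old freely fed replicate 2. The differences were -0.51 (SE 0.18, limma adjusted p = 0.141) against old freely fed and -0.35 (SE 0.18, limma adjusted p = 0.243) against young rats.

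Between old and young freely fed rats, 0 of the 9 genes passed an adjusted p of 0.05 (limma, Benjamini-Hochberg over 20425 features), where 3.72% of all features did. At an unadjusted p under 0.05 the count was also 0 of 9, against 24.6% of all features. The point estimates were positive for 7 genes and negative for Atf3 (-0.33) and Nr4a1 (-0.01, positive under median centring or quantile scaling), with adjusted p of 0.458 to 0.997. For Egr2, the gene with the highest estimate, the change was 0.51 (SE 0.49, 95% interval -0.57 to 1.59). The groups overlapped for every gene, where 15.1% of features had groups that did not overlap. The median change of the 9 genes was 0.16, beside -0.05 over all features, and without old freely fed replicate 3 it was -0.18. The widest 95% interval was that of Nr4a1, -1.75 to 1.74.

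Between restricted and freely fed old rats, 0 of 9 genes passed the adjusted threshold, against 3.64% of features. Estimates were negative for all 9 genes, beside 42.6% of all features, and their median was -1.03 beside 0.02. At an unadjusted p under 0.05, 6 genes were lower, Fos, Jun, Egr1, Egr2, Atf3 and Ier2, where 9.16% of features were lower. The lower group did not overlap with the other for 2 genes, Jun and Ier2, where this held for 6.05% of features. Differences of at least 2-fold downward were found for 5 genes, beside 1.46% of features. With each animal left out in turn the count of adjusted calls was 0 in every fit, and the median ran from -1.51 to -0.66. When limma weighted arrays by their estimated quality, those 6 genes passed, with adjusted p of 0.0228 to 0.0365 and a median of -1.92. That fit gave old freely fed replicate 3 and restricted replicate 2, which are high and low for these genes, the largest weights, 2.33 and 2.3.

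Restricted old rats and young rats share the same restricted animals with the comparison before, so the values are set side by side and not counted as a second observation. Here 0 of 9 genes passed the adjusted threshold, against 9.18% of features, and 4 were lower at an unadjusted p under 0.05 (Fos, Jun, Egr1 and Atf3) against 16% of features. That count was 2 without young replicate 2, 2 without restricted replicate 2 and 1 without restricted replicate 3. All 9 estimates were negative (that of Egr3 turned positive with median centring or quantile scaling), with a median of -0.92 beside -0.01 over all features. The restricted rats lay wholly below the young rats for 4 genes, Jun, Egr1, Atf3 and Ier2, where this held for 10.8% of features. The spread among old freely fed rats enters this test, because the 3 groups share an error estimate. When only the 2 groups compared were fitted, Egr1, Atf3 and Ier2 passed (limma adjusted p of 0.018 to 0.0408). Without old freely fed replicate 3, Fos, Egr1, Atf3 and Ier2 passed (limma adjusted p of 0.0221 to 0.0423), and without old freely fed replicate 4, Atf3 alone passed (limma adjusted p = 0.0421).

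**Figure D2:**
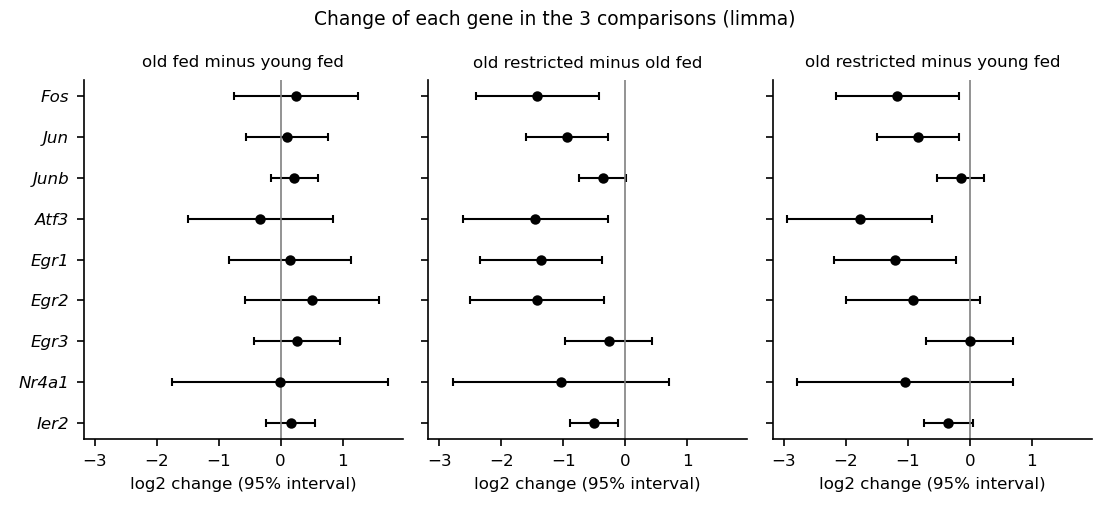
Log2 change of each of the 9 genes (x axis) in the comparisons of age, restriction and restricted old against young rats; points are limma estimates over 12 arrays and bars their 95% intervals. In the middle panel all 9 points lie left of 0, from -1.45 to -0.27, and in the left panel all 9 intervals contain 0.

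Spread between animals of 1 group was large for these genes. The median SD within groups, pooled over the 3 groups, was 0.726 for the 9 genes and 0.125 for all 20425 features. Nr4a1 had an SD of 1.29, higher than 99.4% of features, Atf3 0.863 (98.2%), Egr2 0.794 (97.9%), Fos 0.733 (97.5%) and Egr1 0.726 (97.4%). Egr3 and Jun followed at 0.496 and 0.488, and Ier2 and Junb were lowest at 0.286 and 0.276, still higher than 85.0% and 84.0% of features.

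The spread was not equal in the 3 groups. The median SD over the 9 genes was 0.366 in young, 0.842 in old freely fed and 0.565 in restricted rats, while over all features it was 0.120, 0.110 and 0.103. For Fos the highest young rat was 1.75-fold above the lowest, against 4.50-fold among old freely fed rats. For Atf3 the ranges were 2.73-fold and 7.23-fold. With 4 animals a group and 1 animal, replicate 3, at the top of the old freely fed group, the difference in SD between groups was not tested.

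**Figure D3:**
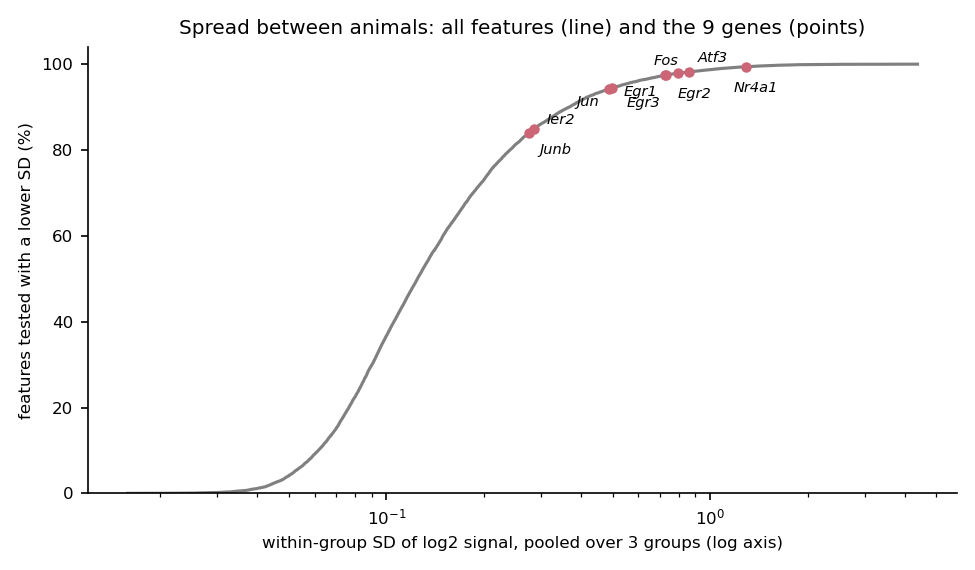
Within-group SD of log2 signal pooled over the 3 groups (x axis, log scale) against the percentage of all tested features with a lower SD (y axis). The line is all 20425 features and the points are the 9 genes, from Junb (0.276) to Nr4a1 (1.29).

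The deviations from group means ran through the same animals for different genes. Old freely fed replicate 3 was the highest of its group for 8 of 9 genes, by 2.23 above the group mean for Nr4a1, 1.64 for Atf3, 1.49 for Fos and 1.43 for Egr1. Old freely fed replicates 2 and 4 were above their group mean for 0 of 9 genes. Restricted replicates 2 and 3 were each above it for 1 gene, whereas replicates 1 and 4 were above it for 7 and 8. Among young rats, replicate 2 was above the mean for 7 genes and replicate 3 for 0.

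Over the 12 animals, after group means were removed, the 36 pairs of genes had a median Pearson correlation of 0.654, and 24 pairs (66.7%) exceeded 0.5. Without the 2 animals farthest from the median of the first gene of a pair, the median was 0.496 and 16 pairs exceeded 0.5, 14 of them among the 24. Over all pairs of tested features the median was 0.0135 and 10.3% exceeded 0.5. In 9 pairs the correlation had a p under 0.05 after adjustment over the 36 pairs (exact permutation within groups), all 9 positive, and without the 2 outermost animals these 9 correlations were 0.676 to 0.954. With Spearman's rho in the same permutation test, Jun with Atf3 (adjusted p = 0.13) and Atf3 with Nr4a1 (0.0776) did not pass. Fos with Egr2 (0.0385) and Fos with Nr4a1 (0.0313) passed by rho only. Jun and Nr4a1 gave the highest value, r = 0.961 (Spearman's rho 0.944, exact permutation p = 0.000289, adjusted p = 0.0104), and r = 0.954 without the 2 animals farthest from the median of Jun. Fos and Egr1 gave r = 0.947 (rho 0.902, exact permutation p = 0.00174, adjusted p = 0.0125) and 0.874 without the 2 animals farthest out. Egr3 had correlations of -0.40 (with Junb) to 0.33 (with Egr2), none of which passed, though without the 2 outermost animals it gave 0.782 with Ier2, 0.499 with Nr4a1 and 0.497 with Jun. Several correlations of Junb rest on the outermost animals. Without them, Junb gave 0.324 in place of 0.708 with Fos, -0.08 in place of 0.615 with Egr1, -0.34 in place of 0.606 with Atf3 and -0.457 in place of 0.467 with Nr4a1. Atf3 with Ier2 went from 0.662 to 0.109 in the same way.

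**Figure D4:**
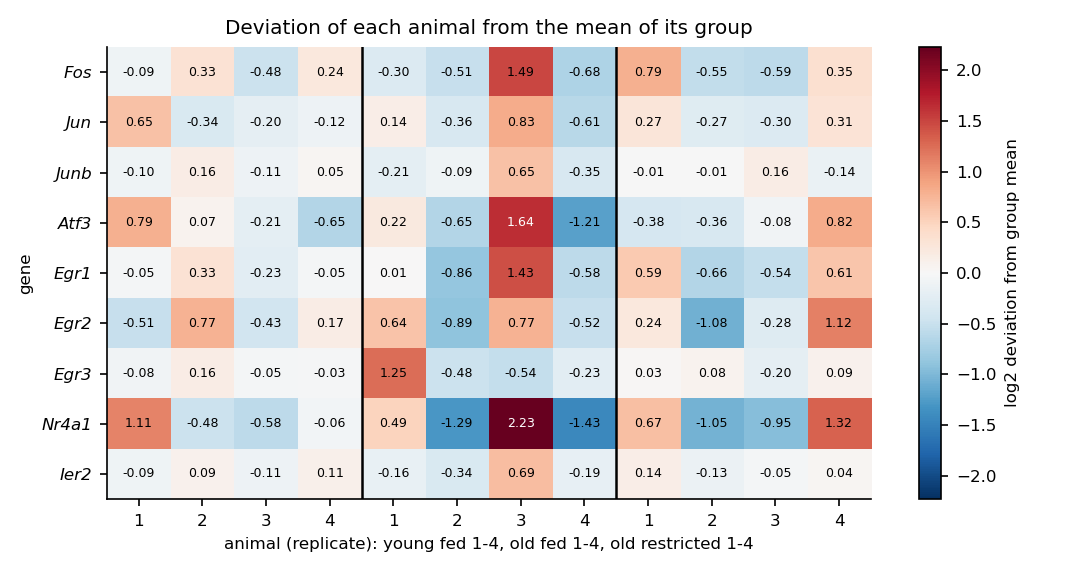
Deviation of each animal's log2 level from the mean of its group, for the 9 genes (rows) and 12 rats (columns, 4 per group, separated by lines); red is above and blue below the group mean. The column of old freely fed replicate 3 is red for 8 of 9 genes, with 2.23 for Nr4a1, and restricted replicates 2 and 3 are blue for 8 genes each.

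Among the features with a gene symbol outside the 9, those whose deviations followed the mean of the 9 genes most closely over the 12 arrays were Arc (r = 0.905), Defb27 (0.892), Rasl11b (0.872), Nr4a2 (0.862), Pdlim4 (0.860), Pdlim3 (0.856), Tas2r113 (0.839), Slc25a1 (0.833), Cldn3 (0.833) and Slc25a25 (0.831). Arc, an immediate early gene best known from neurons, and Nr4a2, the closest relative of Nr4a1, are in the lists of early genes below. Arc was at -1.22, -2.69, 1.15 and -2.47 in old freely fed rats, with replicate 3 again on top, and Nr4a2 was at 0.19, -0.07, 2.23 and 0.04. Arrays share the 12 animals and the ranking was taken from 12036 features with a symbol, so that these correlations are given as a description. Cldn3 had a mean level of -9.16 in young rats, where negative control spots had -9.08. Slc25a1 rose under restriction (0.27, limma adjusted p = 0.0137), whereas the estimates of the 9 genes were negative.

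Further early genes were described by list, with the genes chosen for their known class. Over all features, 1.63% were called higher and 2.1% lower with age, 1.62% and 2.02% with restriction, and 3.19% and 5.99% between restricted and young rats. Of 17 other immediate early transcription factors tested, 15 had negative estimates under restriction, with a median of -0.39, and 1 passed. Klf10, a TGF-beta-induced repressor, fell by 0.40 (log2 change -0.40, limma adjusted p = 0.0166), with levels of 1.90 to 2.07 in old freely fed and 1.44 to 1.76 in restricted rats that did not overlap. Its call was lost without restricted replicate 2. With age 15 of 17 estimates were positive and 0 passed (limma, 5 higher at an unadjusted p under 0.05, where 8.32% of all features were, median 0.21), and the smallest p belonged to Myc (0.50, limma adjusted p = 0.0564) and Cebpb (0.38, limma adjusted p = 0.0762). Between restricted and young rats Klf5, a factor of epithelium and smooth muscle (0.33, adjusted p = 0.0131), and Bhlhe40, a clock-linked repressor (0.63, adjusted p = 0.0227), rose and Klf10 fell (-0.27, adjusted p = 0.0436). Klf5 passed in all 12 fits with 1 animal left out. Bhlhe40 was lost without young replicate 1, 2 or 3 or restricted replicate 3 or 4, and Klf10 without young replicate 1, 3 or 4, old freely fed replicate 1 or 3, or restricted replicate 2, 3 or 4.

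The feedback list holds genes that are induced early, among them inhibitors of the response, and 25 of its genes were tested. Dusp6, the cytoplasmic phosphatase that inactivates ERK, had levels of 1.23, 1.37, 1.01 and 1.15 in young rats. It was at 1.84, 1.83, 1.77 and 1.63 in old freely fed and at 1.0, 0.87, 1.17 and 1.29 in restricted rats. All 4 old freely fed rats lay above the other 8 animals and were close to each other, with replicate 3 in their midst. Dusp6 rose with age by 0.58 (SE 0.10, limma adjusted p = 0.0157) and fell with restriction by 0.68 (log2 change -0.68, SE 0.10, limma adjusted p = 0.00445), and both calls stood in all 12 fits with 1 animal left out. Both comparisons use the same old freely fed rats, so the 2 changes are not separate observations.

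Plk2, a kinase induced early by growth and stress signals, fell by 0.66 under restriction (log2 change -0.66, limma adjusted p = 0.012) with groups that did not overlap. These were 2 of 25 genes lower and 0 higher under restriction, with a median of -0.20. In the list as a whole 20 of 25 estimates were negative. Dusp1, a nuclear phosphatase for p38 and JNK, was at -1.44, -1.99, -1.08 and -2.15 in old freely fed and -2.43, -2.72, -3.34 and -2.09 in restricted rats, a difference of -0.98 (limma adjusted p = 0.117). Dusp1 was chosen after its values were seen. With age 1 gene was higher, Dusp6, and 0 were lower. Between restricted and young rats 1 gene rose, Sgk1, a kinase induced by serum and glucocorticoids (0.34, limma adjusted p = 0.029), and its call was lost without any 1 of the young replicates or without restricted replicate 1 or 3.

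Secreted products of the early response showed the most calls under restriction, 4 of 14 genes tested lower and 0 higher, with a median of -0.58. Ccl2, the main chemokine for monocytes, was at 0.56, -0.25, 0.22 and 0.38 in old freely fed and at -1.52, -2.08, -0.61 and -1.56 in restricted rats. The groups did not overlap, and Ccl2 fell by 1.67 (log2 change -1.67, SE 0.29, limma adjusted p = 0.012), or 3.18-fold. Cxcl1, a neutrophil chemokine, fell by 1.30 (log2 change -1.30, SE 0.23, limma adjusted p = 0.0143), and Has1, a hyaluronan synthase, by 1.22 (log2 change -1.22, SE 0.24, limma adjusted p = 0.02).

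The fourth of them, Cxcl2, another neutrophil chemokine, fell by 2.43 (log2 change -2.43, limma adjusted p = 0.0203) and is named because it completes the count. The calls of Ccl2 and Cxcl1 stood in all 12 fits with 1 animal left out, while Has1 was lost without old freely fed replicate 1 or restricted replicate 2, and Cxcl2 without restricted replicate 1 or 2, and also when only the groups compared were fitted (limma adjusted p = 0.0542) or with replicate number as a block (0.0545). Between restricted and young rats 2 of 14 were lower, Cxcl2 (-2.65, adjusted p = 0.0093) and Has1 (-0.95, adjusted p = 0.031), the latter lost without young replicate 1 or 2 or restricted replicate 1, 2 or 3. With age 0 of 14 passed (limma, 4 higher at an unadjusted p under 0.05, against the same 8.32% of features), and the smallest p belonged to Plaur (0.42, limma adjusted p = 0.054) and Ccl2 (0.91, limma adjusted p = 0.0874).

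**Figure D5:**
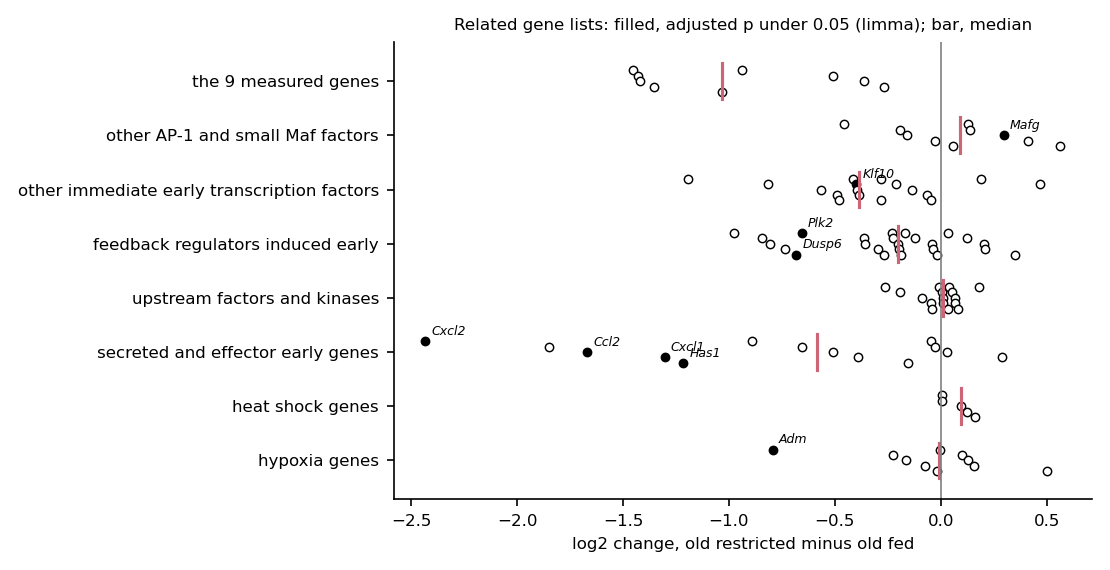
Log2 change between restricted and freely fed old rats (x axis) for the 9 genes and for 7 lists of related genes (rows). Each point is a gene, filled where the limma adjusted p was under 0.05, and the vertical bar is the median of the row; points are spread vertically only to separate them. The median was -1.03 for the 9 genes, -0.58 for secreted products and 0.01 for upstream factors and kinases.

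Of 10 other AP-1 and small Maf genes tested, 1 rose with restriction, Mafg, a small Maf partner of CNC factors (0.30, limma adjusted p = 0.0262), and the median was 0.09. Mafg also rose between young and restricted rats (0.22, adjusted p = 0.0482), with the first call lost without old freely fed replicate 1 or 2 or restricted replicate 2, 3 or 4, and the second without young replicate 1, 2 or 3, old freely fed replicate 1, 3 or 4, or restricted replicate 2, 3 or 4. With age Batf, an AP-1 factor of lymphocytes, rose (0.67, adjusted p = 0.0419) and Batf3, a factor of dendritic cells, fell (-0.35, adjusted p = 0.04999). Batf passed in 4 and Batf3 in 2 of 12 fits with 1 animal left out. Batf was lost without any 1 young rat, without old freely fed replicate 3 or without restricted replicate 1, 2 or 4, and Batf3 also without old freely fed replicate 2 or 4. The highest old freely fed level of Batf, -1.9, was that of replicate 2, in which the summed T and NK cell markers deviated by 0.86 from the group mean. All 8 of 8 T and NK cell markers were higher with age at an unadjusted p under 0.05 (limma), where 8.32% of all features were. The adjusted threshold was passed by 4 of them, against 1.63% of features called higher. The median of the 8 markers was 0.95, beside -0.05 over all features. The part of these cells in the change of Batf was not tested. Several of these calls were close to the threshold. Of 13 other settings, the call was kept in 9 for Batf, 7 for Batf3, 10 for Mafg with restriction, 7 for Mafg between restricted and young rats and 5 for Klf10 between restricted and young rats.

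Of 16 factors and kinases that act upstream of the 9 genes, 0 passed in any comparison (limma), with 5, 1 and 4 genes past an unadjusted p of 0.05 with age, with restriction and between restricted and young rats, where 24.6%, 20.6% and 26.1% of all features were, and the median under restriction was 0.01. Srf itself changed by 0.07 under restriction (limma adjusted p = 0.74) and by -0.32 with age (limma adjusted p = 0.0913). Mapk3, which encodes ERK1, was lowest in p between restricted and young rats (-0.38, limma adjusted p = 0.0501). Among 5 heat shock genes 0 passed in any comparison (limma, 2 lower with age at an unadjusted p under 0.05, where 16.3% of all features were), and all 5 estimates under restriction were positive (median 0.10). Of 10 hypoxia genes 1 fell under restriction, Adm, which encodes the vasodilator adrenomedullin (-0.79, limma adjusted p = 0.0175, lost without restricted replicate 2), and the median was -0.01.

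Markers of other cells also differed between the groups, and their part in the results above was not tested. For comparison, 42.6% of all features had negative estimates under restriction. Of all features, 9.16% were lower at an unadjusted p under 0.05 (limma) and 2.02% passed the adjusted threshold as lower. Under restriction, estimates were negative for 7 of 7 neutrophil and mast cell markers (7 past an unadjusted p of 0.05 and 1 past the adjusted threshold), for 8 of 8 macrophage markers (2 past an unadjusted p of 0.05 and 0 past the adjusted threshold), for 8 of 8 T and NK cell markers (7 past an unadjusted p of 0.05 and 2 past the adjusted threshold), for 3 of 3 adipocyte markers (3 and 0), for 4 of 4 endothelial markers (2 and 1) and for 4 of 4 erythrocyte markers (3 past an unadjusted p of 0.05 and 0 past the adjusted threshold). The log2 summed signal of the neutrophil and mast cell list was -1.69 to 0.06 in old freely fed and -2.25 to -1.76 in restricted rats. For T and NK cell markers it was 1.25 to 2.49 and 0.66 to 0.996, for adipocyte markers 4.13 to 5.24 and 3.69 to 3.85, for endothelial markers 2.36 to 2.58 and 2.06 to 2.28, and for erythrocyte markers 5.96 to 7.41 and 5.52 to 6.10. Adipoq, the adipocyte hormone adiponectin, had mean levels of -0.15 in old freely fed and -3.37 in restricted rats. Smooth muscle markers had summed levels of 8.04 to 8.59 and 8.34 to 8.58, with 0 of 8 past either threshold. Macrophage markers had 4.78 to 6.20 and 4.75 to 5.13, ranges that overlapped. Negative estimates were also found for 6 of 8 nerve and glia, 3 of 4 striated muscle and 3 of 3 prostate and seminal vesicle markers. In each of these 3 lists 1 marker was lower at an unadjusted p under 0.05 (limma) and 0 passed the adjusted threshold. In the other direction, estimates under restriction were positive for 6 of 6 fibroblast markers and for 6 of 7 urothelial markers. In each of these 2 lists, 2 markers were higher at an unadjusted p under 0.05 and 0 passed the adjusted threshold (limma). Among all 20425 features, 11730 had positive estimates and 2340 were higher at an unadjusted p under 0.05. The adjusted threshold was passed as higher by 1.62% of features.

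In old freely fed replicate 3, where 8 of the 9 genes were highest, the summed levels of blood and immune lists deviated from the group mean by -0.71 (erythrocyte), -0.52 (neutrophil and mast cell), -0.38 (T and NK cell) and -0.34 (macrophage markers). Old freely fed replicate 4, the lowest of its group for 5 of 9 genes, deviated by -0.10, -0.84, -0.27 and -0.51 for the same lists. Replicate 2 deviated by 0.75, 0.91, 0.86 and 0.92, which raised the group means. Smooth muscle markers deviated by 0.13 in replicate 3 and by -0.31 in replicate 4. Over the 12 animals the deviations of smooth muscle markers had the highest correlation of the 12 lists with the mean of the 9 genes, r = 0.711, and the other 11 lists lay between -0.56 and 0.38. These correlations share arrays and scaling with the genes and are given as a description. The smooth muscle deviation of largest size was that of old freely fed replicate 4. The smooth muscle list holds Tagln, which was well above background on only 3 of 4 old freely fed arrays. The part of Tagln in the correlation was not tested.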

How the data were processed

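The authors deposited scanner output of Agilent Feature Extraction 10.7 (per the submitters' processing notes) for 12 arrays. Its processed signal is an intensity, background-subtracted and detrended within an array per the file headers (design 028279, build rn4), with no scaling between arrays. A deposited table for the whole series held the same intensity values (100% within a relative tolerance of 1e-06) and was not used further. Here the log2 processed signal minus each array's 75th percentile over 58717 non-control spots was averaged over the unflagged spots of a probe. Spots marked as outliers were dropped where a probe had others. Names came from RefSeq accessions matched to GRCr8 (59.3% of probes). A probe was kept when all 4 arrays of at least 1 group had it well above background (23089 probes) and the brightest stood for a gene (20425 features).

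Linear models over 12 arrays (limma 3.58, R 4.3, moderated with a brightness trend) were tested two-sided at a Benjamini-Hochberg adjusted p of 0.05 over all features in each comparison. The number of arrays limits the precision, and p-values measure only the spread between these animals. The steps were tested on simulated data. Correlations of deviations used exact permutation within groups.

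The 10 genes, the 7 early lists (97 of 118 genes tested), the 12 marker lists (70 of 84 tested) and the tests were chosen with earlier results of these data known. Of each early list, up to 3 genes past the threshold with the smallest adjusted p were named in a comparison, otherwise up to 2 as values, and the 10 features most like the 9 genes. Alternatives changed scaling, background correction, filter, probe choice, variance model, samples, array weights and the replicate block.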

Additional observations from a re-analysis of the deposited data

Results flagged for a closer look

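In old freely fed rats the highest level of Ier2, 3.08 in replicate 3, lay far above the other 3 animals, at 2.05 to 2.22. The gap was 0.832 of the group's range, above the 95% critical value of Dixon's test for 4 animals. Of 27 groups tested over the 9 genes this was the 1 flagged, and chance flags about 1 in 20.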

How the results depend on the processing

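Over the alternatives, restriction kept its direction for the 9 genes except Egr3. The calls changed as follows. Restricted against young rats gave 3 calls when only these groups were fitted, 4 without old freely fed replicates 2 and 3 together (chosen after seeing the data), and 0 to 4 with 1 animal left out. Array weights gave restriction 6 calls and a median of -1.92. With 1 animal left out the medians were -0.18 to 0.42 for age, -1.51 to -0.66 for restriction and -1.29 to -0.67 for restricted against young rats. With age, Nr4a1 changed sign with median centring (0.0226), quantile scaling (0.0342), normexp (0.0154), normexp with quantile scaling (0.0484) and array weights (1.05), and Atf3 with array weights (0.25). Without old freely fed replicates 2 and 3, age gave -0.24 for Fos, -0.14 for Jun, -0.0623 for Junb, -0.14 for Egr1 and -0.0185 for Ier2. Restricted against young rats, Egr3 gave 0.0195 with median centring and 0.0624 with quantile scaling. With 1 animal left out, age ranged from -0.25 to 0.47 for Fos, -0.18 to 0.32 for Jun, -0.33 to 0.43 for Egr1, -0.15 to 0.44 for Egr3, -0.87 to 0.0782 for Atf3, -0.75 to 0.47 for Nr4a1 and -0.0709 to 0.27 for Ier2, and Egr3 from -0.45 to 0.15 with restriction and -0.0340 to 0.0612 between restricted and young rats. The cause of these moves was not tested. Of the other early genes called with restriction, only Ccl2 and Cxcl2 still passed when old freely fed animals 2 and 3 were both removed (Mafg, Klf10, Dusp6, Plk2, Cxcl1, Has1 and Adm did not). Their log2 changes stayed close, such as -0.65 in place of -0.68 for Dusp6, -0.70 in place of -0.66 for Plk2, -1.32 in place of -1.30 for Cxcl1 and -1.25 in place of -1.22 for Has1. Dusp6 also missed the threshold for age in that fit (0.54, limma adjusted p = 0.115).

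Same-numbered animals did not deviate together (correlations -0.19 to 0.10 over 12 pairs). In every group the replicate number was also the column of the array on its slide, so the replicate block stands for that position as well. With the replicate block 0 of the 9 genes passed in each comparison, and over all features 498 in place of 760 passed with age. Features called with age also numbered 411 with normexp and quantile scaling, 3568 with no filter, 440 with no brightness trend, 94 with only these groups, 1556 with array weights, 25 without old freely fed replicates 2 and 3, and 121 to 927 with 1 animal left out. With restriction they numbered 744, against 478 with only these groups, 1844 with array weights, 146 without those 2 animals and 268 to 848. Between restricted and young rats they numbered 1874, against 3259 with no filter and 737 to 2089. The share higher among calls with age was 43.7%, against 71.8% with median centring, 70.5% with quantile scaling and 69.8% with both normexp and quantile scaling. With restriction it was 44.5%, against 64.1% with normexp, and between restricted and young rats 34.7%, against 48.4% with quantile scaling and 45.5% when normexp preceded it. Dim probes limit Egr2 and Egr3. Normexp used the median spot signal in place of the mean signal (chosen after seeing the files).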
